A study of Mus musculus with 7 samples.

Results

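Nkx2-2, the gene for the homeodomain transcription factor NKX2.2, was examined together with 9 genes for corepressor partners that it is known to recruit or work with: the Groucho/TLE genes Tle1, Tle2, Tle3, Tle4 and Aes, the histone deacetylase gene Hdac1, and the DNA methyltransferase genes Dnmt1, Dnmt3a and Dnmt3b. The genes were taken by symbol, and all 10 were found among the 55536 genes of the deposited count table. RNA was sequenced from alpha cells, the glucagon-secreting cells of the pancreatic islet, sorted from mouse islets by the red fluorescence of tdTomato. By genotype the 4 control samples were Nkx2.2+/+;Gcg-iCre;Rosa26:tdTomato and the 3 knockout (KO) samples were Nkx2.2fl/fl;Gcg-iCre;Rosa26:tdTomato. Both groups therefore carried the Gcg-iCre driver and the tdTomato reporter, which the series' design text places at Rosa25 in place of Rosa26, and that text gives the strain as C57B1/6J. Cre was driven by the glucagon gene, and in which cells recombination took place was not tested. The labels give neither age nor sex, and they do not state which stretch of Nkx2-2 lies between the loxP sites. They also do not say that the samples came from separate animals, so p-values measure the spread between these samples, which may be technical. One KO column carries a number that no KO title has and is called the unnumbered KO library.

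NKX2.2 binds DNA through its homeodomain and can repress or activate genes. Repression runs through its TN domain, which resembles a Groucho-binding motif, and Groucho/TLE proteins in turn bring histone deacetylases to DNA. In pancreatic beta cells NKX2.2 is known to act in a repressor complex with a Groucho protein, HDAC1 and the methyltransferase DNMT3A. DNMT3A and DNMT3B place methyl groups on unmethylated DNA, while DNMT1 copies existing methylation after replication.

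The label of the sorted cells was checked against its markers. Gcg was by far the most abundant of the 8 alpha cell markers in every library, and the summed normalized counts of the 8 markers ran from 6472428 to 8458988 in controls and from 2963004 to 4274155 in KO. Normalized counts are counts divided by the library's DESeq2 size factor. RNA of other islet cells was present in both groups. The 8 beta cell markers summed to 301098 to 618057 in controls and 439541 to 845077 in KO, the 4 delta cell markers to 196263 to 398978 and 355301 to 632402, and Ppy of gamma cells to 178540 to 401493 and 615185 to 783711. Ppy (log2 fold change 1.51, adjusted p = 2.52e-08 in DESeq2, 0.0474 in edgeR) and the delta cell marker Rbp4 (1.55, 0.0127 and 0.0761) rose in DESeq2, and no beta cell marker was called. Outside the endocrine cells, 5 duct markers summed to 8350 to 12381 in controls and 11901 to 12455 in KO. Most of that sum was Krt7 (8836 ± 1620 and 10088 ± 265). Spp1 (669 ± 20.1 and 1054 ± 284, DESeq2 adjusted p = 0.0246), Sox9 (267 ± 222 and 861 ± 179, 0.169) and Cftr (18.2 ± 14.7 and 64.8 ± 6.5, 0.166) had every KO library above every control, and Spp1 passed the test. Groups thus did not overlap for 3 of the 5 duct markers, against 12% of all genes tested in either direction. The sums of 6 acinar markers, of which Amy2a5 was at 0 in all libraries, were 267 to 10171 and 1562 to 5504. Markers of endothelial cells (369 to 556 and 357 to 921), leukocytes (972 to 1524 and 839 to 1028) and mesenchymal cells (1343 to 3794 and 2165 to 3970), 5 each, stayed far below the endocrine sums. Among these the leukocyte marker C1qa fell, from 976 ± 225 to 553 ± 124 (DESeq2 adjusted p = 0.0113). The rest of the leukocyte list went the other way. Cd74 stood at 89.6 ± 53.2 and 261 ± 22.3, with every KO library above every control (DESeq2 adjusted p = 0.139). Its lowest value, 10.1, was that of control 4. Without that library Cd74 was called (log2 fold change 1.17, DESeq2 adjusted p = 0.000355), and so was C1qa (-0.88, 0.00191). Ptprc, Cd68 and Lyz2 had log2 fold changes of 1.30, 0.51 and 0.53. Cd68 was not called. Ptprc and Lyz2 were too low for a DESeq2 adjusted p, and edgeR did not call them. Total counts per library ran from 45483504 to 72456557. Control 4 stood apart, with the highest total and 31024 genes detected, against 23150 to 25873 in the other 6 libraries, and results are therefore also given without it. The labels give no sex. Normalized counts of 4 Y-linked genes together were 4.54, 0, 8764 and 8844 in controls 1 to 4. In KO 1, KO 2 and the unnumbered KO they were 1675, 3491 and 11338. Xist, expressed from the inactive X chromosome, held 43226, 42539, 5.23 and 1049 in controls and 43397, 25628 and 808 in KO. KO 1 and KO 2 thus held both Xist and Y-linked RNA, and the groups differed in these genes. The part of sex in the results was not tested. The part of these marker differences in the results below was not tested. In bulk samples, fewer cells of a type and less RNA per cell cannot be told apart.

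Promoter sequences were read to see whether the core letters described for NKX2.2 sites, TNAAGTG, lie near the start sites of the genes themselves. RefSeq windows (GRCm38.p6) of 300 bases, 250 before and 50 after a start site, were found for 8 of the 10 genes, 13 windows in all. Windows were not used here for Aes and Hdac1. The core was searched on both strands, and also in its longer form TNAAGTGG, which contains it. Of all 32851 windows, 11.5% held TNAAGTG and 3.21% held TNAAGTGG. Among the 13 windows, 2 held the core, one at Nkx2-2 and one of the 3 at Dnmt1. The 250 bases before each of these start sites are shown on the gene's strand, which is the minus strand for both, with the core in capitals.
Nkx2-2, chr2:147186403-147186652: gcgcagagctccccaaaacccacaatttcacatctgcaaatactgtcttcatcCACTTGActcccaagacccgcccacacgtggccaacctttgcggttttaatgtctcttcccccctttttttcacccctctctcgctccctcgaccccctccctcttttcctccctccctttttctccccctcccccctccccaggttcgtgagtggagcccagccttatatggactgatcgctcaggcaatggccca
Dnmt1, chr9:20952980-20953229: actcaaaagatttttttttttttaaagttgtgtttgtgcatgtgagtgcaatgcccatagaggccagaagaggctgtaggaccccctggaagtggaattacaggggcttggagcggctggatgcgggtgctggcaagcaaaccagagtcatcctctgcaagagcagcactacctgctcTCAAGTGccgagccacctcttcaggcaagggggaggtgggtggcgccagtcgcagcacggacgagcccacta
At Nkx2-2 the core lay from -197 to -191 relative to the start site, on the strand opposite to the gene, where it also completed the longer form. At Dnmt1 it lay from -72 to -66 on the gene's own strand. The Dnmt1 window lies inside the gene body of the longer transcripts, since the gene as annotated starts at position 20959888. No window of Tle1, Tle2, Tle3, Tle4, Dnmt3a or Dnmt3b held these letters. A match is a run of letters and not a measured binding site. CpG pairs, the target of the DNA methyltransferases, numbered 2 to 47 in the 13 windows, and 12 of the 13 were above the median of 7 over all windows.

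Nkx2-2 was the one gene of the 10 that DESeq2 called, and it was lower in KO. The gene (ENSMUSG00000027434) lies on the minus strand of chromosome 2 at 147177546 to 147194243. Controls 1 to 4 held 8596, 11199, 12297 and 9782 normalized counts, and KO 1, KO 2 and the unnumbered KO held 7758, 7534 and 7694. Every KO library was below every control, and the KO libraries lay close together while the controls spread widely. The coefficient of variation was 15.5% in controls and 1.5% in KO. Controls averaged 10468 ± 1618 (SD, n = 4) and KO libraries 7662 ± 115 (SD, n = 3), so that 73.2% of the control level of RNA remained. On the log2 scale KO differed from control by -0.45 (SE 0.13, 95% interval -0.71 to -0.19), and the DESeq2 adjusted p was 0.0218. The interval corresponds to 61% to 87.8% of the control level. By the edgeR quasi-likelihood test the log2 fold change was also -0.45, but the adjusted p was 0.152. DESeq2 called 4.51% of the 17571 genes tested at an adjusted p under 0.05 (2.27% lower and 2.24% higher in KO) and edgeR called 1.05% of 19310, so 1 of the 10 genes called by DESeq2 and 0 by edgeR is to be read against these shares. At an unadjusted p under 0.05, edgeR counted 1 of the 10, Nkx2-2 itself, where 10.5% of all genes did. Libraries of the 2 groups did not overlap for 1 of the 10 genes and for 12% of all genes tested, with KO below in 5.94%.

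The direction of the Nkx2-2 difference held in all 19 fits tried, and its call did not. These fits reuse the same libraries. With every KO library below every control, leaving libraries out had little room to reverse the direction. Its log2 fold change ran from -0.53 to -0.34, and the adjusted p was under 0.05 in 10 of the 19 fits. The DESeq2 call held without control 1 (adjusted p = 0.00134) and without control 4 (adjusted p = 0.0107). It was lost on leaving out control 2 (adjusted p = 0.0879), control 3 (0.124), KO 1 (0.156), KO 2 (0.12) or the unnumbered KO (0.0695). In KO the transcript still stood at 2665 ± 40.1 normalized counts per kb of exon (SD, n = 3), against 3641 ± 563 (SD, n = 4) in controls. Counts per gene do not separate exons between the loxP sites from exons outside them.

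**Figure D1:**
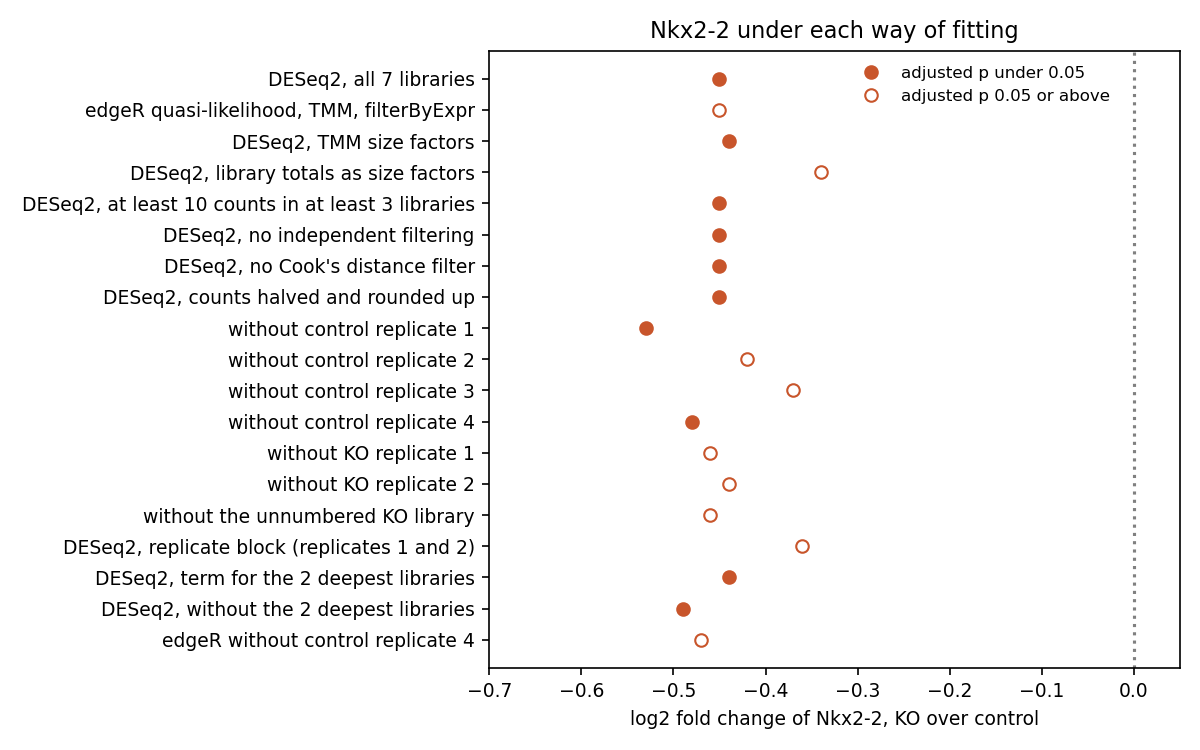
Log2 fold change of Nkx2-2, KO over control (x axis), in each of 19 fits (rows). Filled points have an adjusted p under 0.05 and open points do not. All points lie between -0.53 and -0.34, and 10 are filled.

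No gene around Nkx2-2 that was tested was called. Kiz, which encodes a centrosome protein, and Xrn2, the nuclear 5′ to 3′ exoribonuclease, lie within 500 kb. Kiz averaged 2853 ± 93 normalized counts in the controls and 2998 ± 39.6 in KO (log2 fold change 0.07, DESeq2 adjusted p = 0.956). Xrn2 had 2320 ± 63.2 and 2215 ± 59.8 (-0.07, DESeq2 adjusted p = 0.973). The antisense transcript Nkx2-2os, on the opposite strand, starts inside Nkx2-2: its first exon (chromosome 2, 147184083 to 147184360, 278 bases) lies wholly within coding exon 2 of Nkx2-2, and 9.67% of the Nkx2-2 exon length is shared with exons on the other strand. The strand setting of the counting is not given in the sources used here, so reads of the pair from that stretch may not have been told apart. Nkx2-2os held 95.3, 199, 180.4 and 2.89 normalized counts in the controls and 88, 52.7 and 89.6 in KO, against at least 7534 for Nkx2-2 in every library. Its log2 fold change was -0.63 (DESeq2 adjusted p = 0.965), and without control 4, where every KO library was below every control, it was -1.04 (DESeq2 adjusted p = 0.0965). The nearby antisense transcript 6430503K07Rik held 52.2, 51.9, 47.1 and 812 in controls and 70.4, 45.4 and 70.4 in KO. DESeq2 gave 6430503K07Rik no p with all libraries, and its edgeR adjusted p was 0.623. Its KO mean was 25.8% of the control mean with control 4, and without that library the log2 fold change was 0.30 (DESeq2 adjusted p = 0.864). Control 4 was thus the extreme library for both antisense transcripts, in opposite directions, while its Nkx2-2 value lay between those of the other controls.

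Close relatives of Nkx2-2 were mostly near 0. Of 13 other NK homeobox genes, 12 had at least 1 count and 2 were abundant enough for an adjusted p, and neither was called by DESeq2 (0 at an unadjusted p under 0.05, and 0 by edgeR). The most abundant per length was Nkx6-1, a factor best known from beta cells, at 3778 ± 735 normalized counts in controls and 4562 ± 814 in KO (log2 fold change 0.27, DESeq2 adjusted p = 0.672). Nkx6-3 followed with 69.9 ± 30.1 and 88.5 ± 27.3. Nkx2-4, the closest neighbour of Nkx2-2 within the family on chromosome 2, did not exceed 2.36 normalized counts in any library.

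None of the 9 partners was called. DESeq2 called 0 of 9, edgeR called 0, and 1, Tle3, had an unadjusted p under 0.05 in DESeq2, where 12.2% of all genes tested did. Their estimated log2 fold changes were below 0 for 7 and above 0 for 2 (Tle3 and Dnmt3b). The median of the 10 genes was -0.10, against 0.01 over all genes tested.

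**Figure D2:**
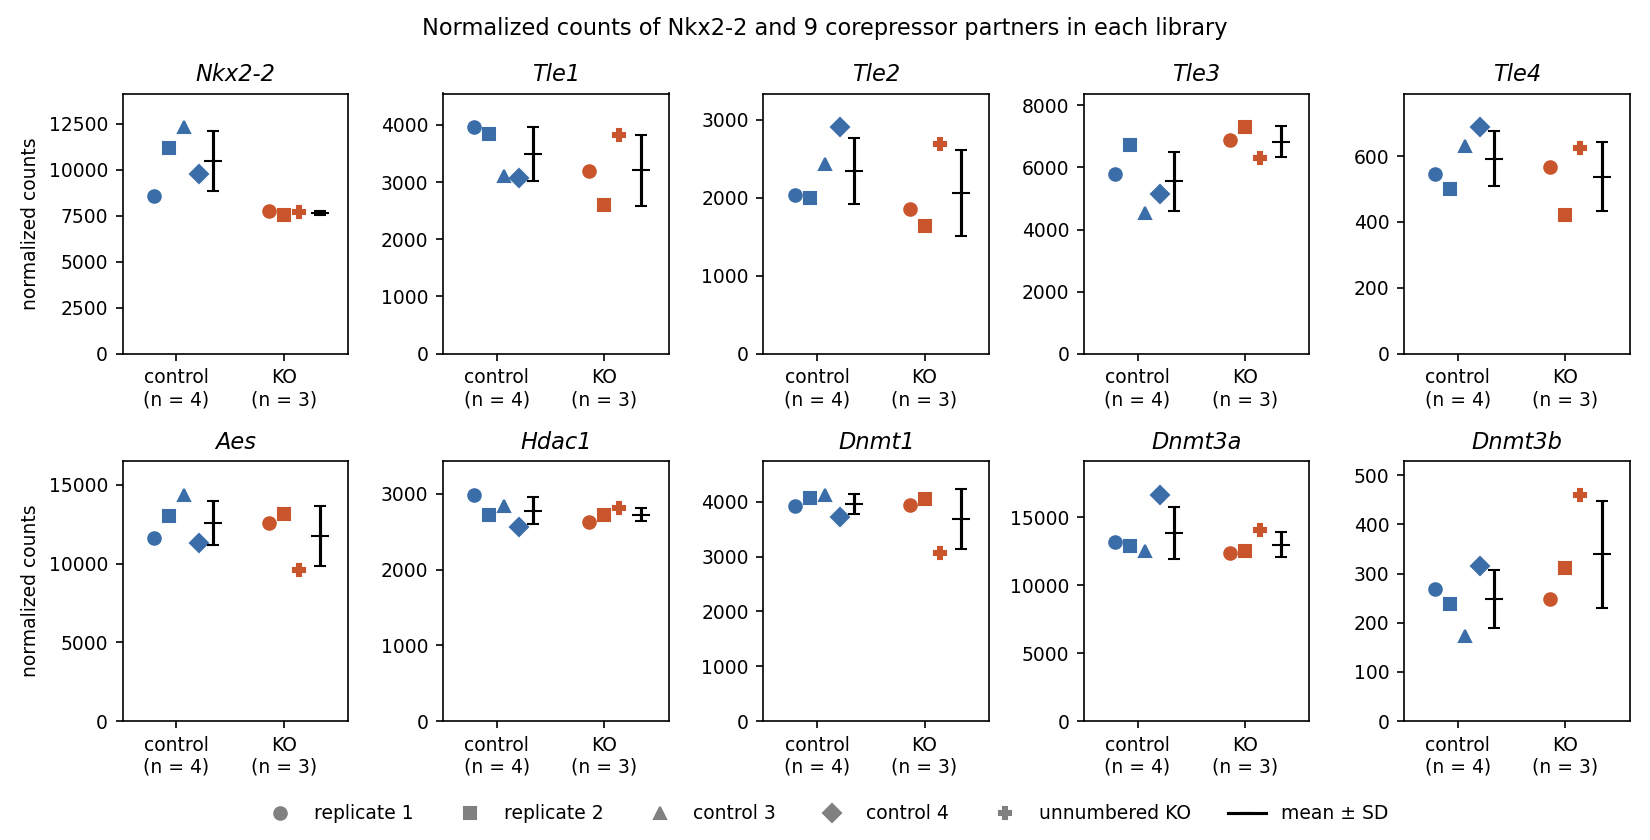
Normalized counts (y axis, from 0) of each of the 10 genes in the 4 control (blue) and 3 KO (orange) libraries, one panel per gene, with the mean ± SD to the right of each group. KO and control points separate fully for Nkx2-2 and overlap for the other 9 genes.

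The Groucho/TLE genes encode corepressors with a WD-repeat domain that binds the TN motif of NKX2.2. Tle3 (ENSMUSG00000032280, chromosome 9, 61372366 to 61418497, plus strand), the mouse Grg3 gene, was the most abundant per length of the 4 full-length genes. Controls held 5793, 6726, 4527 and 5147 normalized counts and KO 6893, 7290 and 6291. KO 1 and KO 2 were above all controls, and the unnumbered KO was below control 2, so the groups overlapped. The means were 5548 ± 940.1 (SD, n = 4) and 6825 ± 503 (SD, n = 3). A log2 fold change of 0.30 (SE 0.15, 95% interval 0.01 to 0.59) was estimated. Its unadjusted p of 0.0415 in DESeq2 became an adjusted p of 0.367, and the edgeR adjusted p was 0.502. Over all fits it ran from 0.18 to 0.40 and was never called, the lowest adjusted p being 0.0606 without control 2 in DESeq2.

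Tle1, Tle2 and Tle4 showed no difference that passed the test, and their KO libraries scattered as much as the controls. Tle1 (ENSMUSG00000008305, chromosome 4, 72117142 to 72200919, minus strand) held 3956, 3840, 3101 and 3080 normalized counts in controls and 3202, 2592 and 3826 in KO. KO 2 was the lowest of all 7 libraries and the unnumbered KO was near the highest controls. Tle1 differed by -0.12 on the log2 scale (SE 0.16, 95% interval -0.45 to 0.20, DESeq2 adjusted p = 0.967). Tle2 (ENSMUSG00000034771, chromosome 10, 81574561 to 81590845, plus strand) held 2029, 1993, 2436 and 2899 in controls and 1856, 1640 and 2681 in KO. KO 1 and KO 2 were below all controls, while the unnumbered KO exceeded 3 of them. Its log2 fold change was -0.18 (SE 0.20, 95% interval -0.58 to 0.21, DESeq2 adjusted p = 0.932), and without the unnumbered KO it was -0.42 (DESeq2 adjusted p = 0.285). Tle4 (ENSMUSG00000024642, chromosome 19, 14448150 to 14598051, minus strand) was the rarest of the family, with 547, 501, 631 and 687 in controls and 566, 421 and 626 in KO. The groups overlapped, and the log2 fold change was -0.14 (SE 0.20, 95% interval -0.54 to 0.26, DESeq2 adjusted p = 0.975). Tle1 is the one partner that was called in any fit: with the replicate number as a block, over replicates 1 and 2 only, its log2 fold change was -0.44 with a DESeq2 adjusted p of 0.0397, beside 3.86% of genes called in that fit. The numbers were not taken to pair the samples.

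Aes, now also named Tle5, encodes a short family member that lacks the WD-repeat domain and is known to oppose full-length TLE proteins in some settings. The gene (ENSMUSG00000054452) lies on chromosome 10 at 81559488 to 81566362, plus strand, next to Tle2. Controls held 11629, 13002, 14368 and 11313 normalized counts and KO 12558, 13165 and 9588. KO 1 and KO 2 lay among the controls, and the unnumbered KO was the lowest library. Its log2 fold change was -0.10 (SE 0.14, 95% interval -0.38 to 0.18, DESeq2 adjusted p = 0.975).

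The makeup of the Groucho/TLE family was compared within libraries, per length. The Aes share of the summed level of the 5 genes was 73.4% ± 2.92 (SD, n = 4) for controls and 71.6% ± 5.45 (SD, n = 3) for KO. Tle3 made up 10.2%, 10.8%, 6.99% and 9.25% in controls and 11.5%, 12% and 12.3% in KO. All KO libraries had a larger Tle3 share than any control, which was not so for the shares of the other 4 genes. Among the 4 full-length genes alone the Tle3 share overlapped between groups, at 34.9% ± 4.29 in controls and 42.9% ± 7.08 in KO. The separation therefore rested on the inclusion of Aes. These shares were examined after the values were seen, and no test is given for them.

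Hdac1 had the estimate nearest 0 and the narrowest interval of the 10 genes. It encodes a class I histone deacetylase of the SIN3, NuRD and CoREST complexes, and the gene (ENSMUSG00000028800) lies on chromosome 4 at 129516104 to 129542713, minus strand. Controls held 2987, 2728, 2840 and 2566 normalized counts and KO 2636, 2728 and 2816. The KO values lay inside the control range. The estimated log2 fold change was -0.03 (SE 0.10, 95% interval -0.23 to 0.17, DESeq2 adjusted p = 0.998), an interval of 85.4% to 113% of the control level.

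Of the DNA methyltransferase genes, Dnmt3a was the most abundant per length and Dnmt3b the rarest. Dnmt3a (ENSMUSG00000020661, chromosome 12, 3806007 to 3914443, plus strand) held 13226, 12934, 12545 and 16660 normalized counts in controls and 12386, 12540 and 14055 in KO. Control 4 stood far above the other controls, and without it the KO values straddled the remaining ones. The log2 fold change was -0.09 (SE 0.13, 95% interval -0.34 to 0.16, DESeq2 adjusted p = 0.972), and without control 4 it was 0.01 (DESeq2 adjusted p = 0.983). Dnmt1 (ENSMUSG00000004099, chromosome 9, 20907209 to 20959888, minus strand) held 3926, 4076, 4123 and 3725 in controls and 3946, 4054 and 3065 in KO. KO 1 and KO 2 lay inside the control range, and the unnumbered KO was the lowest library. For Dnmt1 the log2 fold change was -0.10 (SE 0.13, 95% interval -0.35 to 0.15, DESeq2 adjusted p = 0.956).

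Dnmt3b had the widest interval of the partners, and its estimate rested on the unnumbered KO. The gene (ENSMUSG00000027478) lies on chromosome 2 at 153649450 to 153687730, plus strand. It held 269, 238, 174 and 315 normalized counts in controls and 248, 311 and 460.1 in KO. The unnumbered KO was the highest library, and KO 1 and KO 2 lay inside the control range. Its log2 fold change was 0.45 (SE 0.30, 95% interval -0.14 to 1.03), and the adjusted p was 0.677 in DESeq2 and 0.709 in edgeR. The interval spans 90.8% to 205% of the control level, so a difference of such a size was not resolved for Dnmt3b. Leaving out 1 library gave log2 fold changes of 0.16 to 0.63, the lowest without the unnumbered KO (DESeq2 adjusted p = 0.985).

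**Figure D3:**
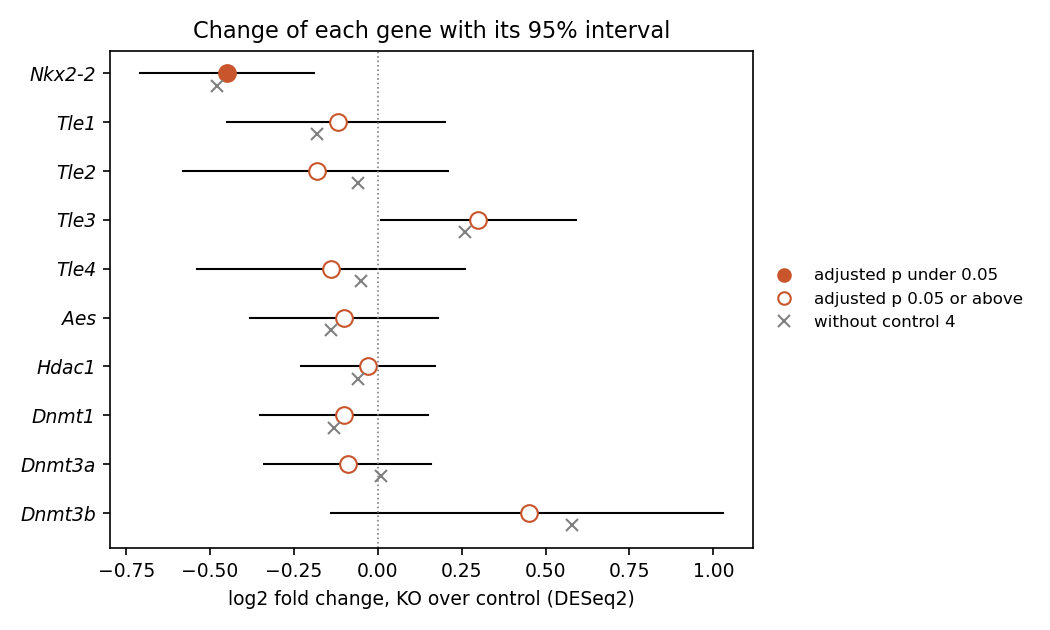
Log2 fold change of each gene, KO over control (x axis), with its 95% interval from DESeq2, filled where the adjusted p was under 0.05, and the estimate without control 4 as a cross. The intervals of Nkx2-2 and Tle3 lie to one side of 0, and only Nkx2-2 is filled. Without control 4, Dnmt3a moves from -0.09 to 0.01.

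Levels were compared between genes per kb of exon, with all annotated exons of a gene merged. The order depends on this length. Dnmt3a has 16642 bases of exon and 2833 of coding sequence, Tle3 11653 and 2369, and Hdac1 3445 and 1446. For Aes these are 3334 and 604, and for Nkx2-2 2875 and 992. Another length, such as that of the coding sequence, would give other ratios between genes. In controls Aes (3773 ± 420.0, SD, n = 4) and Nkx2-2 (3641 ± 563) led, both at the 99.3rd percentile of all detected genes. Dnmt3a (832 ± 114) and Hdac1 (807 ± 51.6) followed, then Dnmt1 (537 ± 24.3), Tle3 (476 ± 80.7), Tle1 (401 ± 53.8), Tle2 (376 ± 68.1), Tle4 (104 ± 14.6) and Dnmt3b (48.8 ± 11.6). On this length the first 2 genes did not differ beyond their spread in controls, where the ratio of Aes to Nkx2-2 was 0.997 to 1.17. In KO that ratio was 1.07 to 1.51, and Aes was the higher in 3 of 3 libraries. Nkx2-2 exceeded Dnmt3a by 3.4 to 5.67 times in controls and by 3.17 to 3.63 times in KO. Dnmt3a and Hdac1 could not be ranked on this length, since Dnmt3a was the higher in 1 of 4 controls and 1 of 3 KO libraries. Hdac1 was above Dnmt1, and Tle2 above Tle4, in all 7 libraries. Dnmt1 was above Tle3 in 3 of 4 controls and in 0 of 3 KO libraries, where Tle3 stood at 586 ± 43.2 per kb and Dnmt1 at 499.9 ± 73.5. Tle1 and Tle2 swapped places between controls. Dnmt3b was the lowest gene in every library, although its KO range overlapped that of Tle4.

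**Figure D4:**
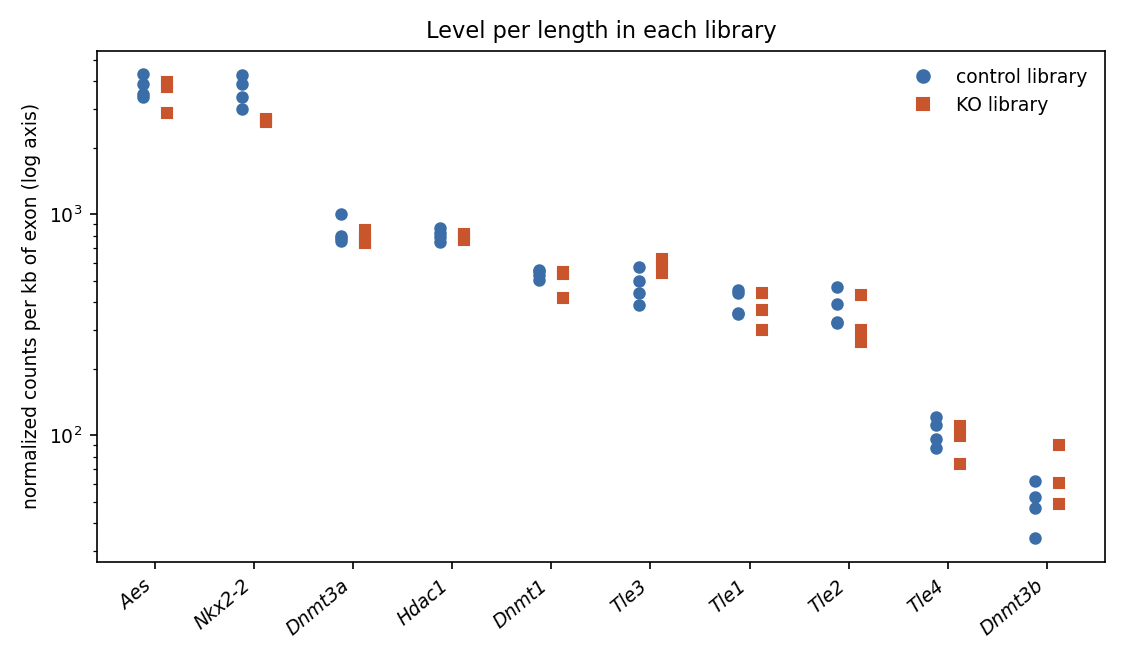
Normalized counts per kb of exon (y axis, log scale) of the 10 genes in each control (circle) and KO (square) library, ordered by the control mean. Aes and Nkx2-2 lie highest, at control means of 3773 and 3641, and Dnmt3b lies lowest, at a control mean of 48.8.

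The amount of each partner RNA relative to Nkx2-2 was taken within each library. For Tle3 the ratio per length was 0.166, 0.148, 0.0908 and 0.13 in controls and 0.219, 0.239 and 0.202 in KO. Of the 9 partner ratios, the one for Tle3 alone did not overlap between the groups, against 33.2% of all genes tested (32.2% with KO above), so the Tle3 ratio does not stand out from the table. For Dnmt3a it was 0.234 ± 0.0553 in controls and 0.293 ± 0.0204 in KO, and for Hdac1 0.226 ± 0.0439 and 0.297 ± 0.0118. The denominator, Nkx2-2, is itself lower in KO and enters all 9 ratios, so they are a description of these libraries and carry no test.

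The 2 libraries with the highest totals, control 4 and the unnumbered KO, were often the extremes of their groups. Both were the highest of their group for Tle2, Tle4, Dnmt3a and Dnmt3b, and both were the lowest for Aes and Dnmt1, which makes 6 of the 10 genes. The share of all genes with this pattern was not computed, so the count is not a trait of these genes. For Nkx2-2 both lay between the others. Among the 5 shallower libraries, control and KO did not overlap for 5 of the 10 genes, against 30.1% of all genes tested: Nkx2-2, Tle2, Hdac1 and Dnmt3a with KO below, and Tle3 with KO above. For Hdac1 the gap was below rounding, with control 2 and KO 2 both at 2728. For Dnmt3a it was also narrow, with control 3 at 12545 and KO 2 at 12540. In DESeq2 without the 2 deepest libraries Nkx2-2 was called (log2 fold change -0.49, adjusted p = 0.0193, 5.53% of genes called) and none of the partners was. In that fit Tle1 had a log2 fold change of -0.33 (DESeq2 adjusted p = 0.231), Tle2 of -0.30 (0.251) and Tle3 of 0.32 (0.315). The part of depth in these values was not tested.

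Related cofactor genes were counted to see whether changes lay elsewhere in the same machinery. The share called over all genes, 4.51% by DESeq2 and 1.05% by edgeR, is the background for each count that follows. At an unadjusted p under 0.05 in DESeq2 the share was 12.2%. Of 26 further corepressor genes, Tle6 of the Groucho/TLE family and subunits of the SIN3, NuRD, NCoR, CoREST and CtBP complexes, none was called by DESeq2 or edgeR, and 0 had an unadjusted p under 0.05 in DESeq2. Their median log2 fold change was -0.04. The most abundant per length was Chd4, the NuRD remodelling ATPase, at 26774 ± 909 normalized counts for controls and 26940 ± 2277 for KO (log2 fold change 0.01, DESeq2 adjusted p = 0.999).

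Of the 10 other histone deacetylase genes 1 was called, against 4.51% of all genes, the cytoplasmic tubulin deacetylase gene Hdac6, which fell. Hdac6 (ENSMUSG00000031161, chromosome X, 7930120 to 7947889, minus strand) was also the most abundant of them per length. Controls held 8598, 7731, 9997 and 10269 normalized counts and KO 6484, 6413 and 6020. Every KO library was below every control, at 68.9% of the control mean. Hdac6 differed by -0.54 on the log2 scale (SE 0.12), with adjusted p = 0.000953 by DESeq2 and 0.0737 by edgeR. The DESeq2 call held on leaving out each of the 7 libraries, with a highest adjusted p of 0.0171 without KO 1, and it was lost with the replicate block (log2 fold change -0.34, adjusted p = 0.0581). The median of the 10 genes was 0.02.

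Of 15 DNA methylation cofactors, readers and erasers, 14 were tested and 1 was called, against 4.51% of all genes. It was Tet3, which rose. Tet3 encodes one of the dioxygenases that oxidise methylcytosine. The gene (ENSMUSG00000034832) lies on chromosome 6 at 83362373 to 83459084, minus strand. Controls held 3348, 5081, 2905 and 4077 normalized counts and KO 6301, 6432 and 6807. All KO libraries were above all controls, at 169% of the control mean. Tet3 differed by 0.76 on the log2 scale (SE 0.18), with adjusted p = 0.00126 by DESeq2 and 0.0877 by edgeR. The call held on leaving out each library in turn (highest DESeq2 adjusted p = 0.0174, without KO 1) but not without the 2 deepest libraries together, where the log2 fold change was 0.75 with an adjusted p of 0.223. Tet1 (2142 ± 309 and 2089 ± 233) and Tet2 (5910 ± 803 and 5920 ± 846) had log2 fold changes of -0.04 and 0.00. The most abundant gene of the list per length, the methyl-CpG reader Mbd2, averaged 5885 ± 310.4 normalized counts for controls and 6272 ± 253 for KO (DESeq2 adjusted p = 0.904). Uhrf1, which guides DNMT1 to newly copied DNA, was low in both groups, at 122 ± 43.5 and 123 ± 41.6.

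Genes described as NKX2.2 targets in islets were next. Of a list of 5, DESeq2 and edgeR called 0, and 1 had an unadjusted p under 0.05 in DESeq2. Other settings called up to 2, with the replicate block and with a term for the 2 deepest libraries. With the block 3.86% of all genes were called. With the depth term 1379 genes were called over the whole table, against 792 in the main result. The most abundant per length, the insulin gene Ins2, averaged 357925 ± 104234 normalized counts for controls and 454255 ± 152990 for KO (log2 fold change 0.34, DESeq2 adjusted p = 0.741). Of the 8 alpha cell markers, 7 fell by DESeq2, among them Gcg, Ttr and Slc38a5, and 3 by edgeR, with Ttr and Slc38a5 among them. Gcg itself differed by -1.04 on the log2 scale (DESeq2 adjusted p = 6.76e-10, edgeR adjusted p = 0.175). The ratio of Gcg to Nkx2-2 per length was 1122 to 1662 in controls and 709.8 to 1047 in KO, so Gcg was lower in KO also relative to Nkx2-2.

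DNMT1 and UHRF1 are tied to DNA replication, so genes of S phase and mitosis were counted beside them. DESeq2 and edgeR called 0 of 10, and 3 had an unadjusted p under 0.05 in DESeq2, where 12.2% of all genes tested did. The median log2 fold change was 0.50, and the sums ran from 4945 to 5677 in controls and from 5421 to 7582 in KO. Pcna, the most abundant per length, had 1274 ± 97.1 and 1245 ± 32 normalized counts (log2 fold change -0.03) and was the one gene of the 10 below 0. Mki67 (1028 ± 171 and 1539 ± 529), Mcm5 (209 ± 58.8 and 332 ± 28.5) and Ccna2 (114 ± 29.9 and 189 ± 44.7) stood higher in KO on average, with DESeq2 adjusted p = 0.201, 0.208 and 0.284. In DESeq2, 1 of the 10 was called without the unnumbered KO and with the replicate block, and 2 without the 2 deepest libraries and with a term for them. Of all genes, 3.86% were called with the block and 5.53% without the 2 deepest libraries. The fit with the depth term called 1379 genes over the whole table, against 792 in the main result. Shares are not given for that fit or for the one without the unnumbered KO. The replication-linked Dnmt1 stood at 93.1% of its control mean.

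**Figure D5:**
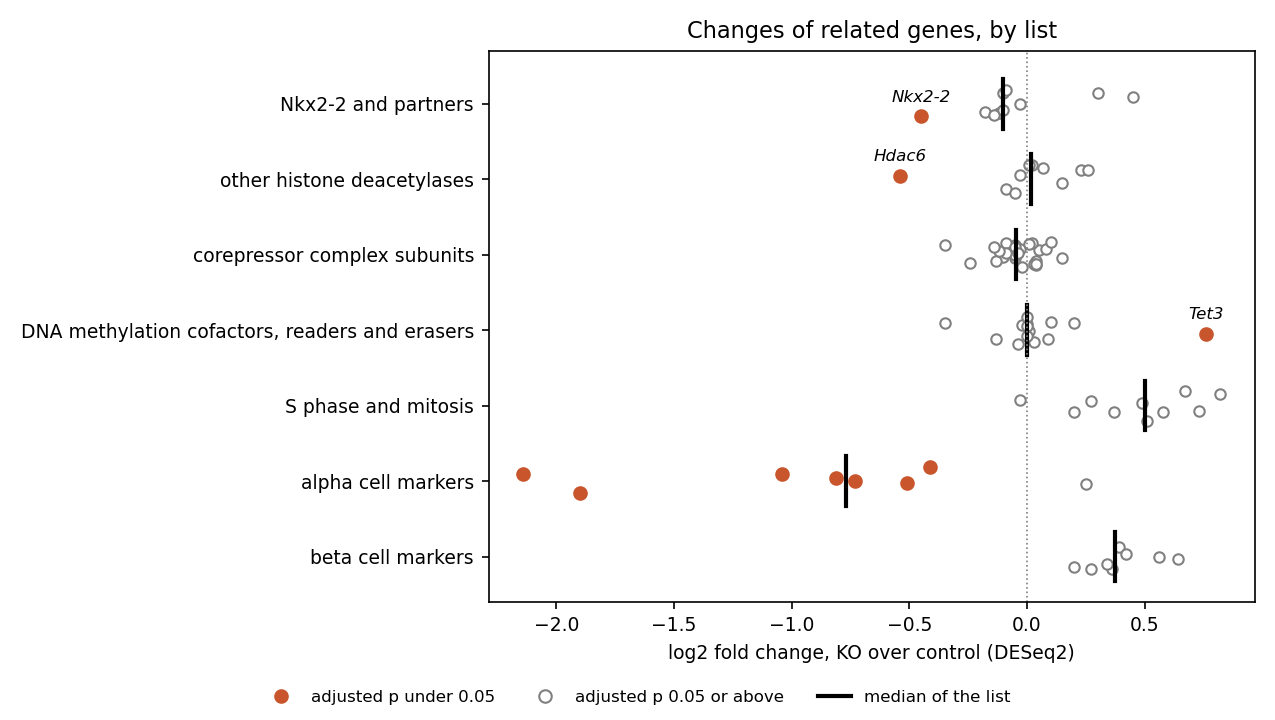
Log2 fold change of each tested gene, KO over control (x axis), for 7 gene lists (rows), filled where the DESeq2 adjusted p was under 0.05, with the list's median as a bar. Corepressor subunits lie close to 0, Hdac6 and Tet3 are the called cofactor genes, and 7 of the 8 alpha cell markers are filled below 0.

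Finally, the genes whose levels over the 7 libraries were most like Nkx2-2 were listed among 12388 genes with a mean of at least 100 normalized counts in both groups. Likeness was Pearson's r of log2(normalized count + 1), given as a description, since all points share libraries and the KO difference. The closest were Serinc5 (0.979), Mgst3 (0.966), Lyrm2 (0.962), Hyls1 (0.959) and 9330182L06Rik (0.955). Since Nkx2-2 separates the groups, genes picked in this way are lower in KO by selection. After the group means were removed, the closest were Gtpbp3 (0.975), Mapk7 (0.974), Fndc4 (0.972), Ttll11 (0.966) and Cops7b (0.966). Nkx2-2 varied by 1.5% in KO and by 15.5% in controls, so these values rest mostly on the 4 controls. None of the partners was among the closest genes of either kind. Over the 7 libraries the most alike partner was Aes, with r = 0.53, and the least alike were Dnmt3b (-0.71) and Tle3 (-0.68).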

How the data were processed

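RNA sequencing libraries of 4 control and 3 KO samples were analysed. The authors deposited whole-number counts per gene; per the submitters' processing notes, FastQC, STAR, featureCounts and DESeq2 were used with the mm10 build, and versions and the strand setting are not given in the sources used here. Of the counts between 1 and 10, even ones made up 84.4% to 88.9% per library, so counts are not independent molecules. All 55536 identifiers matched GENCODE M21 (GRCm38), the source of positions and exon lengths. Exon length is that of all annotated exons of a gene merged, and every level or share per length depends on it.

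DESeq2 1.42.0 (Wald test, genes with at least 1 count, independent filtering and Cook's filter, no covariate, as the design text states) gave the main result, and edgeR 4.0.16 (TMM, quasi-likelihood test) stands beside it, in R 4.3.3. P-values were adjusted by Benjamini-Hochberg over all genes tested, with a threshold of 0.05; intervals are the estimate ± 1.96 SE. Named genes were the 10 genes, the called and most abundant members of each list, neighbours within 500 kb with a mean of at least 10 normalized counts, and the 5 closest by correlation of each kind; other genes, such as Nkx6-3, Nkx2-4, Tle6, Tet1, Tet2, Uhrf1, Sox9, Cftr, Mki67, Mcm5 and Ccna2, were named after their values were seen. Some listed genes that the rule would name are not reported here. Members and lists were chosen with earlier results of these data known. Alternatives were other scalings, filters, left-out libraries, a replicate block and 3 fits added after seeing the data.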

Additional observations from a re-analysis of the deposited data

Results flagged for a closer look

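Dnmt3a in control 4, at 16660 normalized counts, lay far above the other 3 controls (12545 to 13226). The gap to the nearest control was 0.834 of the range of the 4, above Dixon's 95% critical value for 4 samples. All 10 genes were examined in this way, and chance flags about 5% of groups. Control 4 was also the deepest library, with 72456557 counts. Without it the log2 fold change of Dnmt3a was 0.01, against -0.09 with it, and neither passed the test in DESeq2.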

How the results depend on the processing

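For Nkx2-2 the log2 fold change was negative in all 18 alternatives, which reuse the same libraries and are not separate support for the direction. Its call was lost in edgeR with all libraries (-0.45) and without control 4 (-0.47), with library totals as size factors (-0.34, adjusted p = 0.0976 in DESeq2) and with the replicate block (-0.36, adjusted p = 0.0934). Leaving out 1 library gave -0.53 to -0.37. The block used replicates 1 and 2 only. Same-numbered samples deviated together with r = 0.29 and 0.28, against -0.11 and 0.07 when crossed, but 2 pairs do not show pairing.

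The number of partners called was 0 in every setting but the replicate block, where it was 1. Of 162 partner values under alternatives, 151 kept direction and side of the threshold. Reversed log2 fold changes were all small: Hdac1 0.08 and Dnmt3a 0.01 with library totals, Hdac1 0.01 without control 1, Dnmt3a 0.01 in DESeq2 and 0.02 in edgeR without control 4, Tle1 0.01 and Tle4 0.01 without KO 2, Aes 0.03 and Dnmt1 0.01 without the unnumbered KO, and Aes 0.06 with the block. The cause was not tested. Leaving out 1 library gave -0.27 to 0.01 for Tle1, -0.26 to 0.01 for Tle4, -0.19 to 0.03 for Aes, -0.06 to 0.01 for Hdac1, -0.18 to 0.01 for Dnmt1, -0.15 to 0.01 for Dnmt3a, -0.42 to -0.05 for Tle2, 0.21 to 0.40 for Tle3 and 0.16 to 0.63 for Dnmt3b. Library totals shifted the median of all genes by 0.10, and 69.7% of calls were then higher in KO, against 49.7%.

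Genes called over the whole table numbered 792, 203 in edgeR, 249 in edgeR without control 4, 580 with the block, 1379 with a term for the 2 deepest libraries, and 430 to 910 on leaving out 1 library (lowest without KO 1). Of 121 distinct genes in the other lists, 13 were called, against 4 in edgeR, 5 in edgeR without control 4, 20 with the block, 22 with the term for the 2 deepest libraries, and 7 (without KO 1) to 16 on leaving out 1 library. With counts halved, since even counts prevailed, Nkx2-2 stood at -0.45 (DESeq2 adjusted p = 0.0189) and 751 genes were called. Fits without control 4 in edgeR, with the depth term and without the 2 deepest libraries were added after seeing the data.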
